A study of Homo sapiens with 12 samples.

Results

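The genes described here are 9 genes of MHC class I antigen presentation, chosen by gene name in the count table: HLA-B, HLA-C, HLA-E, HLA-F, B2M, TAP1, TAP2, PSMB8 and PSMB9. They are 9 of the 58735 genes in the table, and all 9 passed the filter on low counts in every comparison. RNA was sequenced from 12 samples of HK-2, an established cell line of human renal proximal tubular epithelial cells, in 4 groups of 3. The control group is described as given water, in a label whose wording is not fully clear, and the other groups were exposed for 48 h to iohexol at 75 mg I/mL, an iodinated contrast medium, to cisplatin at 5 μM, a platinum drug that crosslinks DNA, or to vancomycin at 4 mM, a glycopeptide antibiotic. All samples were of 1 cell line, no other genotype was used, and no source used here gave a time for the control group. The study used these treatments as cell models of drug-induced acute kidney injury, and set each drug against the control group. Total counts per sample ranged from 14057282 to 18177109.

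MHC class I molecules show short peptides from inside the cell to CD8 T cells and natural killer cells. The proteasome cuts proteins into peptides, the TAP1/TAP2 transporter moves them into the endoplasmic reticulum, and a loading complex places them on a heavy chain paired with beta-2 microglobulin. Kidney tubular epithelial cells carry class I molecules at rest, and interferons are known to raise these genes together through factors such as NLRC5 and IRF1.

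Vancomycin raised 8 of the 9 genes, against 29.0% of all tested genes, and TAP2 was the exception. The rise was 4.18-fold for HLA-B and 4.10-fold for HLA-C, and 2.10-fold for TAP1 and 2.04-fold for PSMB8. With cisplatin 5 genes were higher and PSMB9 was lower, against 29.2% and 30.6% of all tested genes, and the largest change was that of TAP2, at 1.94-fold. The cisplatin calls of HLA-B, B2M and PSMB9 were lost when certain single samples were left out, and with all 4 groups in one fit. With iohexol 1 gene, HLA-B, passed the test, and it was lower, as were 9.77% of all tested genes. In bulk RNA, fewer expressing cells and less RNA per cell cannot be told apart, and a level is relative to all RNA of the library. As a share of each library's counts, the 9 genes together took 0.253% to 0.310% with vancomycin and 0.0836% to 0.0864% in the control group. The share was 0.116% to 0.121% with cisplatin and 0.0791% to 0.0935% with iohexol.

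**Figure D1:**
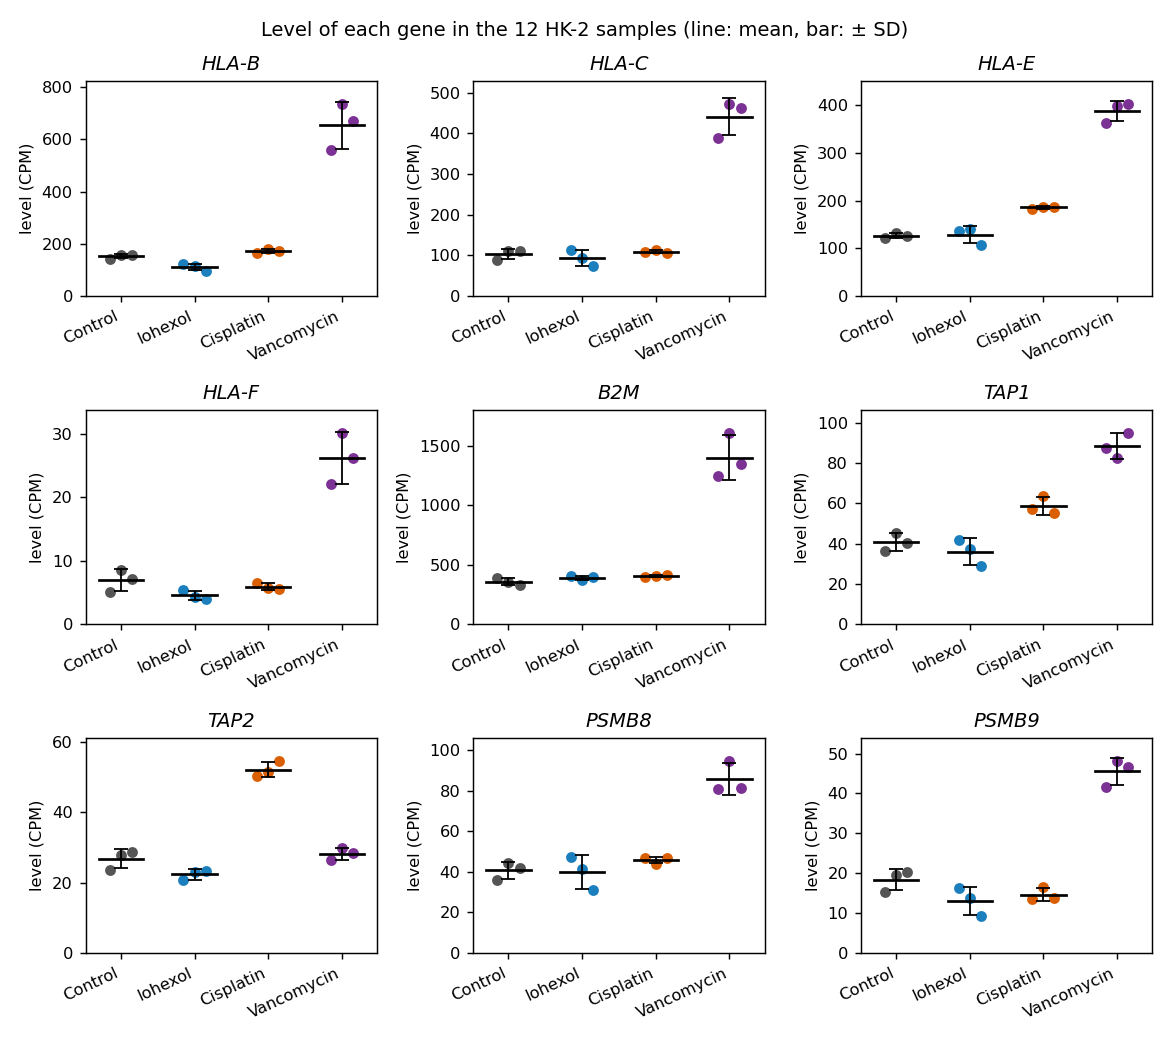
Level of each of the 9 genes in CPM, counts scaled by library size (vertical axes starting at 0), in the 12 samples, 1 panel per gene. Points are samples, the line is the mean and the bar the SD (n = 3). In every panel except that of TAP2 the 3 vancomycin points lie above all others, and in the TAP2 panel the 3 cisplatin points do.

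The cells were first compared with the labelled cell type. Levels are given as CPM, counts scaled to library size and the TMM factor. Of 19 proximal tubule and epithelial markers, 14 to 16 were above the floor of 3 counts in each sample. The epithelial keratin KRT8 or the renal transcription factor PAX8 was the most abundant in each sample. Markers of the differentiated tubule were uneven. The anion transporter SLC22A6 had 0 counts in all 12 samples, and megalin (LRP2) did not exceed 0.188 CPM. In the control samples MME of the same list was at 58.7 to 70.1 CPM and GGT1 at 157.3 to 210.1 CPM. A list of 14 leukocyte markers, which would bring class I genes of their own, summed to 6.38 to 6.47 CPM with vancomycin and to 1.96 to 2.70 CPM in the control group. The sum was 3.46 to 3.71 CPM with iohexol and 1.79 to 2.84 CPM with cisplatin. The most abundant gene of this list was CD14, ITGAM or FCER1G in each sample. The pan-leukocyte gene PTPRC was at most 0.338 CPM, and CD2 and MS4A1 had 0 counts in all 12 samples. The 10 endothelial and fibroblast markers summed to 117 to 131 CPM in the control samples and 242 to 277 with vancomycin, most of it from lumican (LUM). The sum was 111 to 120 CPM with iohexol and 107 to 111 CPM with cisplatin. The endothelial marker PECAM1 went the other way, from 16 to 22 counts in the control samples to 0 to 3 with vancomycin. The part of these markers in the results below was not tested.

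Levels between genes were compared as CPM per kilobase of the gene's exons. The length took in every annotated exon base, 6079 for B2M and 3051 for HLA-B. The transcripts in use may be shorter, to an extent that differs between genes, so the order of the genes depends on this choice of length. In the control samples B2M was highest at 59.1 ± 4.82 CPM per kb (SD, n = 3), followed by HLA-B at 49.7 ± 2.42, HLA-E at 42.5 ± 1.57 and HLA-C at 41.6 ± 5.04. PSMB8 followed at 13.6 ± 1.44, TAP1 at 8.50 ± 0.909, PSMB9 at 5.98 ± 0.847, TAP2 at 4.20 ± 0.424 and HLA-F at 1.60 ± 0.398 CPM per kb. The samples of HLA-E and HLA-C overlapped, and those of all other neighbours in this order did not. With vancomycin TAP2, at 4.42 ± 0.265 CPM per kb, was the lowest of the 9, below HLA-F at 6.03 ± 0.925.

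HLA-B, HLA-C, HLA-E and HLA-F encode class I heavy chains. HLA-B and HLA-C are classical chains that bind a wide range of peptides, HLA-E binds mainly leader peptides of other class I chains and is read by natural killer cells, and HLA-F is a low-abundance nonclassical chain. HLA-B was at 143.2, 156.5 and 155.4 CPM in the control samples and at 121.3, 114.5 and 97.0 CPM with iohexol. It was at 164.1, 180.8 and 173.2 CPM with cisplatin and at 557.8, 734.9 and 669.6 CPM with vancomycin. No sample of any drug group overlapped the control samples: iohexol lay below, cisplatin slightly above and vancomycin far above. By edgeR's quasi-likelihood test with Benjamini-Hochberg adjustment, the log2 fold change of HLA-B was 2.06 (SE 0.10, adjusted p = 1.77e-14) with vancomycin, a 4.18-fold rise. With iohexol it fell by 0.43 on the log2 scale (SE 0.10, adjusted p = 0.0105), and with cisplatin it rose by 0.19 (SE 0.06, adjusted p = 0.0168). The cisplatin call for HLA-B was lost without Cisplatin replicate 2 (adjusted p = 0.11) or replicate 3 (adjusted p = 0.0527). It was also lost with all 4 groups in one fit (adjusted p = 0.116) and with no filter (adjusted p = 0.0542).

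HLA-C was at 89.6, 111.9 and 111.1 CPM in the control samples, 112.3, 93.0 and 72.8 CPM with iohexol, 109.3, 112.6 and 104.7 CPM with cisplatin, and 389.1, 472.1 and 461.3 CPM with vancomycin. The vancomycin samples alone stood clear of the controls. The log2 fold change with vancomycin was 2.04 (SE 0.10, edgeR adjusted p = 3.68e-14), a 4.10-fold rise. The 95% interval of the log2 fold change was -0.47 to 0.17 with iohexol and -0.10 to 0.23 with cisplatin, and neither passed the test (adjusted p = 0.513 and 0.519).

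HLA-E was at 122.4, 131.6 and 125.4 CPM in the control samples and at 137.0, 140.3 and 107.5 CPM with iohexol, which overlapped. It was at 182.6, 187.5 and 187.6 CPM with cisplatin and at 362.7, 398.5 and 402.5 CPM with vancomycin. Of the 4 heavy chains, HLA-E had the largest change with cisplatin (log2 fold change 0.55, SE 0.06, edgeR adjusted p = 3.7e-07) and the smallest with vancomycin (1.57, SE 0.09, adjusted p = 2.08e-13), so that its 2 rises were 1.47-fold and 2.98-fold. The log2 fold change with iohexol was 0.04 with a 95% interval of -0.20 to 0.28.

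HLA-F was the least abundant of the 4 heavy chains, with 60 to 447 counts per sample. It was at 5.15, 8.60 and 7.10 CPM in the control samples, 5.39, 4.28 and 4.01 CPM with iohexol, 6.54, 5.72 and 5.55 CPM with cisplatin, and 22.2, 30.2 and 26.2 CPM with vancomycin. The cisplatin samples lay within the range of the controls, 2 of the 3 iohexol samples lay below it, and the vancomycin samples stood above all others. The log2 fold change with vancomycin was 1.86 (SE 0.16, edgeR adjusted p = 7.11e-10). The values with iohexol, -0.59 (SE 0.22, adjusted p = 0.0714), and with cisplatin, -0.23 (SE 0.18, adjusted p = 0.275), did not pass the test. Without Control replicate 1, the lowest control sample, they were -0.77 (adjusted p = 0.0242) and -0.41 (adjusted p = 0.0366).

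B2M encodes beta-2 microglobulin, the light chain that every class I heavy chain needs to reach the surface. It lies on chromosome 15 at chr15:44711487-44718877, while the other 8 genes lie on chromosome 6. It was at 391.2, 353.9 and 333.4 CPM in the control samples, 405.9, 374.4 and 400.1 CPM with iohexol, 394.4, 410.7 and 414.8 CPM with cisplatin, and 1246, 1611 and 1347 CPM with vancomycin. The cisplatin samples began just above the highest control, the iohexol samples overlapped the controls, and the vancomycin samples stood far above both. The log2 fold change with vancomycin was 1.92 (SE 0.10, edgeR adjusted p = 5.85e-14). With cisplatin it was 0.18 (SE 0.06, adjusted p = 0.0238), a call lost without Cisplatin replicate 2 or 3 and without Control replicate 2 or 3 (adjusted p = 0.0828 to 0.132). The call was also lost with all 4 groups in one fit (adjusted p = 0.0949). With iohexol the log2 fold change was 0.15 (95% interval -0.04 to 0.34, adjusted p = 0.26). The ratio of B2M to HLA-B, both per kilobase, was 1.19 ± 0.156 (SD, n = 3) in the control samples, 1.8 ± 0.238 with iohexol, 1.18 ± 0.0372 with cisplatin and 1.08 ± 0.0591 with vancomycin. The size of this ratio depends on the annotated exon lengths of the 2 genes, while its relative change between groups does not. This ratio was chosen after its values were seen and was not tested.

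TAP1 and TAP2 encode the subunits that together form the peptide transporter. They are neighbours on chromosome 6, at chr6:32845209-32853978 and chr6:32821833-32838780, with PSMB8 between them. TAP1 was at 36.6, 45.3 and 40.6 CPM in the control samples, 41.9, 37.2 and 28.7 CPM with iohexol, 56.9, 63.6 and 55.3 CPM with cisplatin, and 87.2, 82.3 and 95.1 CPM with vancomycin. TAP2 was at 23.7, 27.9 and 28.8 CPM in the control samples, 20.7, 23.2 and 23.3 CPM with iohexol, 50.4, 51.6 and 54.6 CPM with cisplatin, and 26.5, 29.9 and 28.4 CPM with vancomycin. For TAP1 the groups rose in the order control, cisplatin, vancomycin without overlap, whereas for TAP2 the vancomycin samples lay within and just above the control range and the cisplatin samples were highest.

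With vancomycin the log2 fold change of TAP1 was 1.07 (SE 0.10, edgeR adjusted p = 4.66e-09) and that of TAP2 was 0.03 (SE 0.11, adjusted p = 0.837, 95% interval -0.21 to 0.27). The upper end of the TAP2 interval was below the lower end of the TAP1 interval, 0.85. With cisplatin the order of the pair was the other way round. TAP2 rose by 0.96 on the log2 scale (SE 0.09, adjusted p = 5.57e-08) and TAP1 by 0.52 (SE 0.09, adjusted p = 6.62e-05). With iohexol TAP1 was at -0.16 (adjusted p = 0.458) and TAP2 at -0.24 (adjusted p = 0.176), and neither passed the test, although the 3 iohexol samples of TAP2 lay below the controls. The TAP2 to TAP1 ratio per kilobase was 0.495 ± 0.0357 (SD, n = 3) in the control samples, 0.483 ± 0.121 with iohexol, 0.672 ± 0.0667 with cisplatin and 0.242 ± 0.0267 with vancomycin. The ratio was chosen after its values were seen and has no test. Of the exon bases of TAP2, 32.3% are shared with AL669918.1, a gene on the same strand with 0 counts in every sample, so that reads from these bases may not have been counted for either.

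PSMB8 and PSMB9 encode inducible catalytic subunits that replace the standard subunits PSMB5 and PSMB6 and turn the proteasome into the immunoproteasome. PSMB10, the third inducible subunit, replaces PSMB7. PSMB8 was at 36.1, 44.6 and 41.8 CPM in the control samples, 47.6, 41.5 and 31 CPM with iohexol, 46.8, 44.1 and 46.9 CPM with cisplatin, and 81.2, 94.8 and 81.3 CPM with vancomycin. PSMB9 was at 15.4, 19.5 and 20.2 CPM in the control samples, 16.2, 13.8 and 9.29 CPM with iohexol, 13.5, 16.4 and 13.7 CPM with cisplatin, and 41.7, 48.2 and 46.8 CPM with vancomycin. For both genes the vancomycin samples were above all others, and the iohexol and cisplatin samples overlapped the control samples.

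With vancomycin the log2 fold change was 1.03 (SE 0.10, edgeR adjusted p = 9.56e-09) for PSMB8 and 1.26 (SE 0.12, adjusted p = 3.15e-09) for PSMB9. PSMB10 rose by 1.28 (SE 0.19, adjusted p = 5.46e-06). With cisplatin PSMB9 fell by 0.34 on the log2 scale (SE 0.13, adjusted p = 0.0268), while PSMB8 was at 0.17 (SE 0.09, adjusted p = 0.101). The PSMB9 call was lost without Cisplatin replicate 1 or 3 and without Control replicate 2 or 3 (adjusted p = 0.0839 to 0.104), and with DESeq2 (adjusted p = 0.0576). With iohexol PSMB8 was at -0.01 (95% interval -0.34 to 0.32) and PSMB9 at -0.47 (SE 0.19, adjusted p = 0.106).

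The standard subunits rose too, so the balance of the pairs was measured in each sample as a ratio per kilobase. PSMB5, PSMB6 and PSMB7 rose with vancomycin by 0.76, 0.53 and 0.71 on the log2 scale (edgeR adjusted p = 2.28e-07, 5.3e-05 and 1.23e-07). With cisplatin PSMB5 rose by 0.65 (adjusted p = 7.84e-07) and PSMB6 by 0.56 (adjusted p = 2.34e-06), while PSMB7 was at 0.05 (adjusted p = 0.434). The PSMB8/PSMB5 ratio was 0.216, 0.215 and 0.206 in the control samples, 0.160, 0.139 and 0.156 with cisplatin and 0.258, 0.273 and 0.238 with vancomycin. The PSMB9/PSMB6 ratio was 0.0944, 0.0997 and 0.112 in the control samples, 0.0509, 0.0615 and 0.0521 with cisplatin and 0.174, 0.165 and 0.175 with vancomycin. In both ratios the cisplatin samples lay below and the vancomycin samples above every control sample. The mean PSMB9/PSMB6 ratio with vancomycin was 1.68-fold that of the control samples and with cisplatin 0.536-fold, as geometric means.

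In the exact two-sided permutation test of 3 against 3 samples, the smallest p that can be reached is 0.1, and no comparison can pass 0.05. This value of 0.1 was reached in 5 of the 9 ratio comparisons (adjusted p = 0.18): both ratios with both of these drugs, and PSMB10/PSMB7 with vancomycin. The PSMB10/PSMB7 ratio was 0.0231, 0.0609 and 0.0545 in the control samples and 0.0714, 0.0651 and 0.0699 with vancomycin, and Control replicate 1 was far below the other controls. Without that replicate, the log2 difference with vancomycin was 0.25 in place of 0.70. With iohexol the 3 ratios were at 0.211 ± 0.00925, 0.0924 ± 0.0130 and 0.0459 ± 0.0196 (SD, n = 3), all overlapping the controls (exact permutation p = 0.5 to 1.0).

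**Figure D2:**
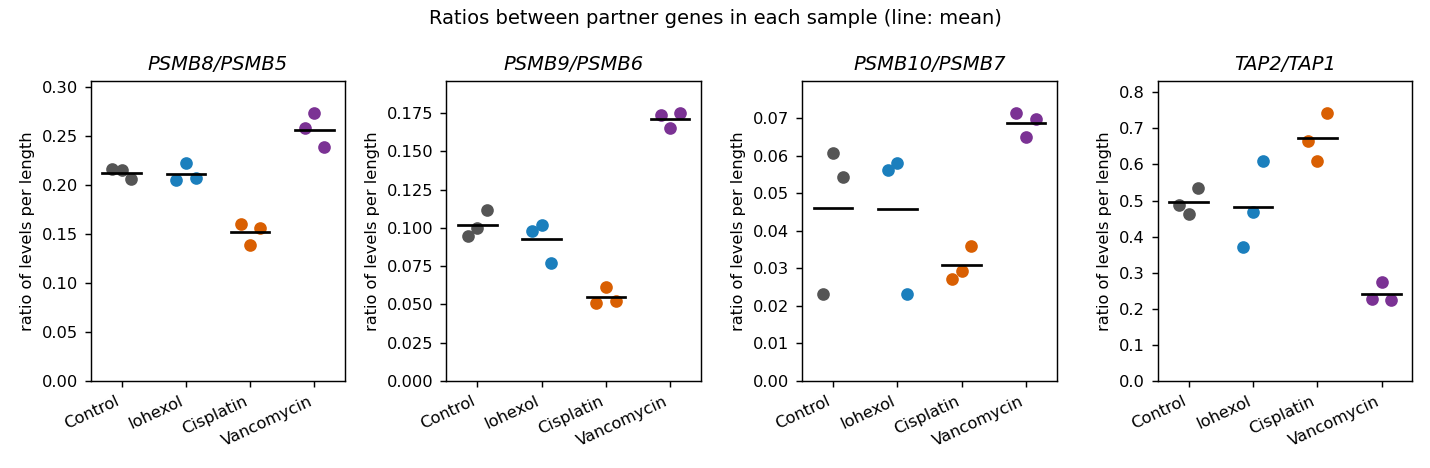
Ratio of partner genes in each sample (levels per kilobase, vertical axes starting at 0) for 3 inducible proteasome subunits over the standard subunits they replace, and for TAP2 over TAP1. Points are samples and lines are means of 3. Vancomycin points are highest in the proteasome panels and lowest in the TAP2/TAP1 panel, where the vancomycin mean is 0.242 against 0.495 in the control samples.

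Over the 9 genes, the calls were compared with the share of all tested genes called in the same direction. With vancomycin 8 of 9 were higher and 0 lower, against 29.0% of all tested genes higher and 28.8% lower. All 8 were also differentially expressed genes (DEGs, an adjusted p under 0.05 with a log2 fold change larger than 1 in size), against 10.8% of all tested genes that were DEGs with a rise. Their samples all lay above the control samples, as those of 33.9% of tested genes did. In some alternatives the log2 fold change with vancomycin was under 1 for TAP1 (lowest 0.99) or PSMB8 (lowest 0.95), which were then not DEGs. With cisplatin 5 of 9 were higher (HLA-B, HLA-E, B2M, TAP1 and TAP2) and PSMB9 was lower, against 29.2% and 30.6% of all tested genes. With cisplatin none of the 9 genes was a DEG, where 16.3% of tested genes were, and TAP2 came nearest to the threshold. Scaled by library size alone, which moved the median of all genes with cisplatin to 0.23, 7 of the 9 were higher and 0 lower, and TAP2 was at 1.18. With iohexol 0 were higher and 1 lower, against 11.2% and 9.77%, so in this fit the share lower was near that of all genes. None was a DEG with iohexol either, against 5.28% of tested genes. With no filter, or with all 4 groups in one fit, 3 were lower with iohexol (HLA-B, HLA-F and PSMB9). With all 4 groups in one fit, 3 were higher with cisplatin, in place of 5. The median log2 fold change of the 9 genes was 1.57 with vancomycin, 0.18 with cisplatin and -0.16 with iohexol, against -0.01, 0.01 and 0.01 over all genes tested. The 3 comparisons share the same control samples.

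**Figure D3:**
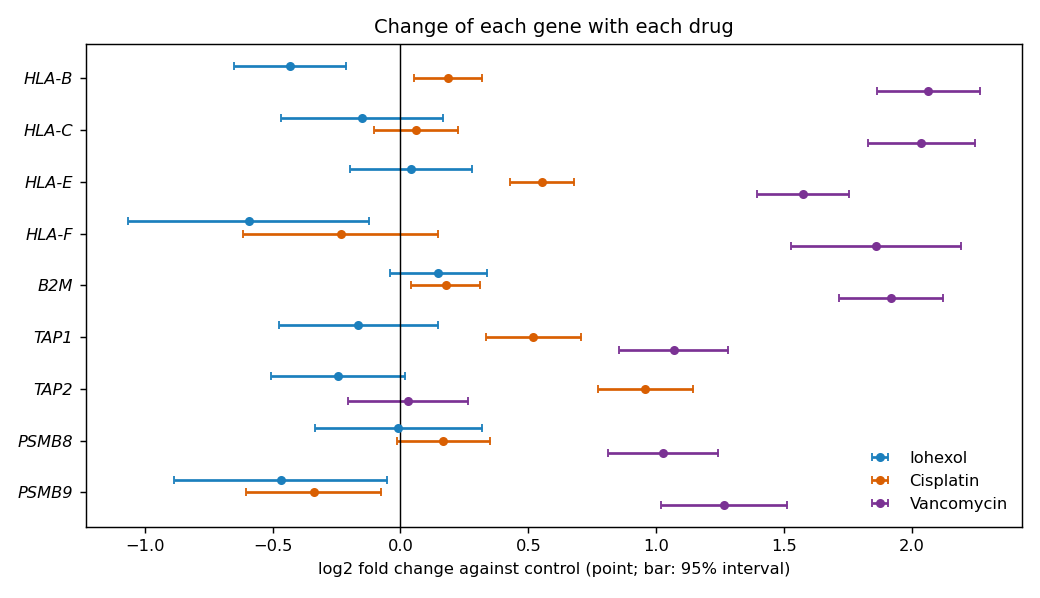
Log2 fold change of each gene against the control group with each drug (horizontal axis). Points are estimates from edgeR and bars are 95% intervals, from fits of 3 against 3 samples. The vancomycin bars of 8 genes lie above 0.81, and the TAP2 bar spans 0.

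The differences between drugs were tested directly, in a fit of all 12 samples. Between vancomycin and cisplatin, 8 genes were higher with vancomycin and TAP2 was lower, against 34.7% and 30.0% of all tested genes. TAP2 was lower by a log2 difference of -0.89 (SE 0.10, edgeR adjusted p = 1.78e-07). The differences of the other 8 genes lay between 0.59 for TAP1 (adjusted p = 0.000156) and 2.14 for HLA-F (adjusted p = 1.1e-09). With HLA-E the difference was 1.06 (adjusted p = 2.41e-09) and with PSMB9 1.65 (adjusted p = 1.15e-08). Scaled by library size alone, the TAP1 difference was 0.25 and no longer passed the test (adjusted p = 0.0584), and under that scaling the median of all genes was -0.30.

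Between vancomycin and iohexol all 9 genes were higher with vancomycin, against 29.0% of all tested genes higher and 27.6% lower. The log2 differences ranged from 0.33 for TAP2 (SE 0.10, edgeR adjusted p = 0.00983) to 2.56 for HLA-B (SE 0.10, adjusted p = 8.05e-14), a 5.89-fold difference. Scaled by library size alone, the TAP2 difference was 0.13 (adjusted p = 0.302). Between cisplatin and iohexol 4 genes were higher with cisplatin, against 26.0% of all tested genes, and 0 were lower, against 27.9%. These were TAP2 by 1.22 (adjusted p = 4.28e-09), TAP1 by 0.71 (adjusted p = 4.46e-05), HLA-B by 0.64 (adjusted p = 1.71e-05) and HLA-E by 0.54 (adjusted p = 4.13e-05). For B2M the difference between cisplatin and iohexol was 0.05 with a 95% interval of -0.14 to 0.23.

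Peptides are also loaded, trimmed and chaperoned by other genes, which were counted as a list. Of 16 such genes, 8 were higher and 3 lower with vancomycin, 1 higher and 12 lower with cisplatin, and 0 higher and 7 lower with iohexol. Over all tested genes, the shares higher and lower were 29.0% and 28.8% with vancomycin, 29.2% and 30.6% with cisplatin, and 11.2% and 9.77% with iohexol. Scaled by library size alone the cisplatin counts were 2 higher and 10 lower. TAPBP (tapasin), which bridges TAP and the heavy chain, was at 279.6, 310.0 and 297.4 CPM in the control samples and at 398.6, 341.4 and 397.8 CPM with vancomycin. It rose by 0.32 on the log2 scale with vancomycin (edgeR adjusted p = 0.00385), and it fell by 0.82 with cisplatin (adjusted p = 2.24e-09) and by 0.37 with iohexol (adjusted p = 0.0137, and 0.0745 without Control replicate 2). TAPBPL, a tapasin-related peptide editor, rose by 1.09 with vancomycin (adjusted p = 1.04e-06), and the chaperone calreticulin (CALR) by 0.73 (adjusted p = 7.8e-08). LNPEP, an endosomal aminopeptidase, fell by 1.61 with vancomycin (adjusted p = 2.38e-12) and by 0.84 with cisplatin (adjusted p = 9.71e-09). The trimming aminopeptidase ERAP2 fell by 0.82 with cisplatin (adjusted p = 6.6e-08), as did UGGT1, a folding sensor of glycoproteins, by 0.83 (adjusted p = 6.83e-09). With iohexol the largest falls were those of the cytosolic hydrolase BLMH, by 0.51 (adjusted p = 0.0045), the disulfide isomerase PDIA3, by 0.42 (adjusted p = 0.00223), and the chaperone HSPA5, by 0.38 (adjusted p = 0.00491).

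Of 6 partners and activators of the immunoproteasome, 4 were higher and 1 lower with vancomycin, 3 higher and 1 lower with cisplatin, and 0 higher and 3 lower with iohexol. Of all tested genes, 29.0%, 29.2% and 11.2% were higher and 28.8%, 30.6% and 9.77% lower with these drugs in turn. With vancomycin PSMB10 and the assembly factor POMP rose, POMP by 0.44 (edgeR adjusted p = 0.000476), while PSME3, a nuclear proteasome activator, fell by 0.77 (adjusted p = 4.42e-08). PSME1 and PSME2 form the interferon-inducible PA28 activator. With vancomycin both were higher, PSME1 by 0.39 (adjusted p = 0.000867) and PSME2 by 0.43 (adjusted p = 0.000334). With cisplatin they went opposite ways, PSME1 by -0.50 (adjusted p = 1.39e-05) and PSME2 by 0.45 (adjusted p = 1.8e-05). With iohexol both were lower, PSME1 by -0.38 (adjusted p = 0.0141, and 0.0621 without Iohexol replicate 2 or 0.0907 without Control replicate 2) and PSME2 by -0.52 (adjusted p = 0.0062).

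NLRC5 is the transactivator that acts on class I promoters together with the RFX complex, and IRF1 is an interferon-induced factor that binds them. NLRC5 was at 13.2, 15.7 and 17.6 CPM in the control samples, 28.1, 30.2 and 24.5 CPM with iohexol, 14.9, 12.7 and 12.9 CPM with cisplatin, and 38.0, 38.8 and 44.6 CPM with vancomycin. Iohexol and vancomycin samples were above all controls, and cisplatin samples overlapped them. NLRC5 rose by 1.34 on the log2 scale with vancomycin (SE 0.12, edgeR adjusted p = 2.11e-09) and by 0.85 with iohexol (SE 0.14, adjusted p = 0.00118). With cisplatin NLRC5 was at -0.20 (adjusted p = 0.176).

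IRF1 rose by 0.44 on the log2 scale with vancomycin (edgeR adjusted p = 0.00317) and by 0.47 with cisplatin (adjusted p = 0.00148) and fell by 0.44 with iohexol (adjusted p = 0.0377). The iohexol call of IRF1 was lost without Iohexol replicate 1 or 2 and without Control replicate 1 or 2 (adjusted p = 0.0538 to 0.191), and when scaled by library size alone (adjusted p = 0.0726). RFX5 fell by 0.40 with vancomycin (adjusted p = 0.00094) and rose by 0.36 with cisplatin (adjusted p = 1e-04).

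Over the 34 genes of class I transcription and interferon signalling, 16 were higher and 10 lower with vancomycin, 14 higher and 7 lower with cisplatin, and 5 higher and 6 lower with iohexol. As shares of the list these were 47.1% and 29.4%, 41.2% and 20.6%, and 14.7% and 17.6%, against 29.0% and 28.8%, 29.2% and 30.6%, and 11.2% and 9.77% of all tested genes, so the share lower with vancomycin was near that of all genes and with cisplatin below it. Among them SOCS3, a feedback inhibitor of cytokine signalling, rose by 1.34 with vancomycin (edgeR adjusted p = 5.87e-09), and IRF9, the DNA-binding part of the type I interferon complex, by 1.25 (adjusted p = 0.000848). With cisplatin IRF7, a driver of interferon genes, rose by 1.25 (adjusted p = 3.02e-08) and NFKBIA, an inhibitor of NF-kB, fell by 0.85 (adjusted p = 5.23e-09). With iohexol SOCS1, another feedback inhibitor, rose by 0.91 (adjusted p = 0.00104) and the receptor chain IFNAR2 fell by 0.87 (adjusted p = 0.0123, and 0.0513 without Iohexol replicate 2).

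Of the interferon-stimulated genes outside the class I pathway, 29 were tested with vancomycin, 3 of which passed the filter on low counts only through the vancomycin samples. Of the 26 over the count minimum in both groups, 23 were higher and 0 lower, against 29.2% and 30.3% of all such genes, with a median log2 fold change of 1.91. ISG20, an RNA exonuclease, was at 1.09, 1.13 and 1.32 CPM in the control samples and at 18.8, 23.4 and 21.9 CPM with vancomycin, a log2 fold change of 4.13 (SE 0.19, edgeR adjusted p = 1.09e-14). OASL rose by 4.01 (adjusted p = 3.34e-15). TRIM22 had 2 to 7 counts in the control samples and 32 to 79 with vancomycin, and was tested only because of the latter. With cisplatin 10 of 25 such genes were higher (40.0%) and 5 lower (20.0%), against 28.7% and 32.7%. Scaled by library size alone, 13 of all 27 tested were higher and 1 lower, in place of 10 and 6. With cisplatin the ubiquitin-like ISG15 rose by 1.49 (adjusted p = 1.98e-09). With iohexol 9 of 25 were higher (36.0%) and 3 lower (12.0%), against 10.8% and 10.7%, with a median of 0.42. Among them GBP2 rose by 1.43 (adjusted p = 6.51e-05) and IFIT2 by 1.21 (adjusted p = 2.9e-05).

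**Figure D4:**
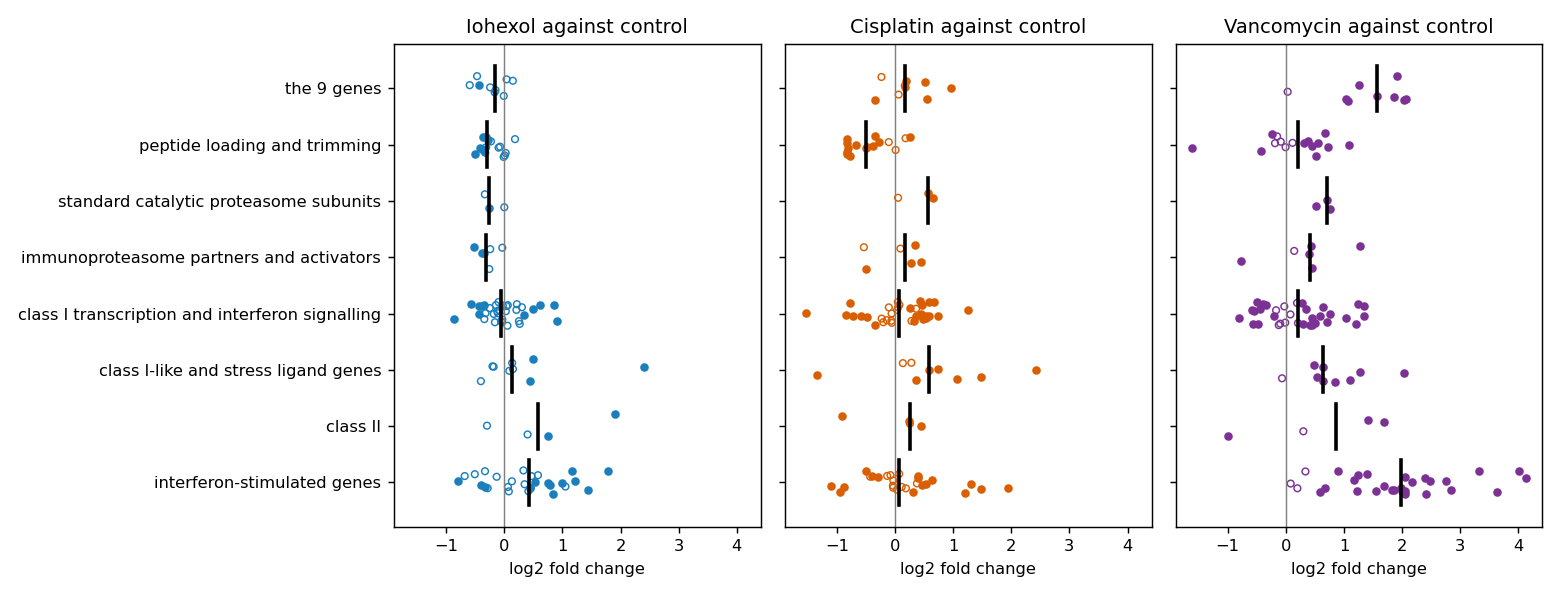
Log2 fold change against control (horizontal axis) of every tested gene of the 9 and of 7 related lists, 1 panel per drug. Filled points passed an adjusted p of 0.05, open points did not, and black bars are list medians. With vancomycin the medians of the 9 genes (1.57) and of all 29 interferon-stimulated genes tested (1.98) stand to the right of the other lists.

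Class I-like genes and ligands of natural killer receptors were also followed, 9 of 15 of which could be tested with each drug, 1 of them only through the drug samples. With vancomycin 7 of the 8 over the count minimum in both groups were higher and 0 lower, against 29.2% and 30.3% of all such genes, and MR1, which presents vitamin B metabolites to MAIT cells, went from 5.88, 6.02 and 7.24 CPM in the control samples to 26.8, 28.2 and 25.9 CPM. Its log2 fold change of 2.04 (SE 0.14, edgeR adjusted p = 8.57e-12) was about that of HLA-C. FCGRT, the heavy chain of the neonatal Fc receptor, which also pairs with B2M, rose by 1.10 (adjusted p = 1.78e-08). With cisplatin 5 of 8 were higher and 1 lower, against 28.7% and 32.7%. The stress ligand ULBP2 rose by 1.47 (adjusted p = 2.39e-09), while HFE, an iron regulator that pairs with B2M, fell by 1.34 (adjusted p = 4.08e-05). With iohexol 2 of 8 were higher and 0 lower, against 10.8% and 10.7%. Of the genes tested only through the drug samples, the stress ligand ULBP1 had 2 to 9 counts in the control samples and 24 to 37 with iohexol, and its relative RAET1G 0 to 6 counts in the control samples and 11 to 16 with cisplatin.

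The class II pathway was mostly silent, with 4 of 13 genes tested. CD74, the invariant chain, rose by 1.41 with vancomycin (edgeR adjusted p = 2.38e-12), and CTSS, a protease that trims it, by 1.69 (adjusted p = 1.87e-13). HLA-DMB, a chain of the class II peptide editor, was at 36.1, 35.5 and 35.1 CPM in the control samples, 146.5, 133.7 and 112.1 CPM with iohexol, 20.1, 16.5 and 20.1 CPM with cisplatin, and 17.5, 17.6 and 20.1 CPM with vancomycin. It rose by 1.90 with iohexol (adjusted p = 5.41e-07) and fell by 0.99 with vancomycin (adjusted p = 7.26e-08) and by 0.91 with cisplatin (adjusted p = 4.65e-07), each direction unlike that of HLA-B with the same drug. HLA-DRA, a class II chain of the cell surface, had 0 counts in 11 of 12 samples.

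The 8 genes on chromosome 6 span chr6:29722775-32859585, which holds 266 other genes in the table. Of the 77 of these over the count minimum in both groups with vancomycin, 42 were higher and 12 lower (54.5% and 15.6%, against 29.2% and 30.3% of all such genes), with a median log2 fold change of 0.48. With cisplatin 33 of 75 were higher and 12 lower (44.0% and 16.0%, against 28.7% and 32.7%), and with iohexol 13 of 75 were higher and 4 lower (17.3% and 5.33%, against 10.8% and 10.7%).

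The profile over the 12 samples, as log2 CPM minus each gene's control mean, was compared with 10087 other genes with a mean of at least 10 CPM. Nearest to the mean profile of the 9 genes by root mean square difference were PFDN5, a subunit of prefoldin (0.0842), CAPG, an actin-capping protein (0.0920), CD74 (0.1), CCDC71L (0.103) and MYL6, a myosin light chain (0.110). Nearest to HLA-B were RPL41 (0.194), PBX4 (0.194) and RPL15P3 (0.208), at distances greater than the 0.172 between HLA-B and HLA-C. Nearest to PSMB9 were TPI1 (0.103), NOP53 (0.110) and CERCAM (0.119). The TAP2 profile was 1.09 from that of HLA-B.

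Because most of the 9 genes moved together with vancomycin, their promoters were read from RefSeq on GRCh38.p14, as 300 bases from 250 before to 50 after the start site. A window was found for 8 of the 9 genes, HLA-E being the one without. The letters GAANNGAAA, and a longer form with GAAA, any 2 bases and GAAA again, are forms of the element bound by interferon regulatory factors. They can overlap each other and were searched on both strands, and so was the NF-kB consensus. One or both forms of the first element were in 7 of the 8 windows, PSMB9 being the one without, and in 10.6% of 35116 windows. Singly, GAANNGAAA was in 4 windows of the 9 genes and in 7.66% of all, and the longer form in 5 and in 3.57%. The NF-kB consensus was in 4 and in 5.91% of all windows. These matches describe letters and are not shown to be bound. The letters CCAAT were in 6 of the 8 windows and in 34.6% of all, and TGACGC in 3 and in 9.14%. The TAP1 and PSMB9 windows overlap, and the same CCAAT site, at chr6:32853949-32853953, was counted for both. The TAP1 matches of the first element, at chr6:32853823-32853838, lie upstream of the PSMB9 window, which begins at chr6:32853942. The count for PSMB9 therefore holds for its window only.

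TAP2, which did not pass the test with vancomycin, holds letters of the element bound by interferon regulatory factors. So do HLA-B, B2M, TAP1 and PSMB8, which passed it. In the windows of 300 bases, HLA-B, B2M and TAP1 also hold NF-kB and CCAAT matches, and TAP2 and PSMB8 hold neither. The part of these letters in the changes was not tested. The windows of a heavy chain, the light chain, the TAP pair and an inducible subunit are shown. Each is 100 bases, 5′ to 3′ on the gene's strand, at chr6:31357291-31357390 (minus strand) for HLA-B, chr15:44711317-44711416 (plus) for B2M, chr6:32853795-32853894 (minus) for TAP1, chr6:32838759-32838858 (minus) for TAP2 and chr6:32844028-32844127 (minus) for PSMB8. Capitals mark matches to either element or to the NF-kB consensus.
HLA-B: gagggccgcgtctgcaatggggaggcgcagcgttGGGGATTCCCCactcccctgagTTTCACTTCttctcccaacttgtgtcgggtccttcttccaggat
B2M: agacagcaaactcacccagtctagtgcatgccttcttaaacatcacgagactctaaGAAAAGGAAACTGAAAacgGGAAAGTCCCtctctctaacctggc
TAP1: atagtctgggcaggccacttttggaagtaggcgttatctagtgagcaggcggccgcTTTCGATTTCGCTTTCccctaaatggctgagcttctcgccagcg
TAP2: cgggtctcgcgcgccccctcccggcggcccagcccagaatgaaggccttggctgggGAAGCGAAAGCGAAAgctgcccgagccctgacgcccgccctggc
PSMB8: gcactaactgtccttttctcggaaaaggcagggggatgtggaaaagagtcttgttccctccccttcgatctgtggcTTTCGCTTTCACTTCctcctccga
The HLA-B and B2M windows also hold an NF-kB match, and in the TAP1, TAP2, B2M and PSMB8 windows 2 overlapping matches of the elements form a run.

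The 9 genes differ in how firmly reads can be assigned to them. Of the 31-base stretches of TAP2, 31.7% also occur in transcripts of other genes, as do 26.0% of HLA-F, 25.5% of HLA-B, 17.0% of HLA-C, 11.8% of HLA-E and 1.79% of B2M, while PSMB8, TAP1 and PSMB9 lay between 7.46% and 19.1%. For HLA-B most of this was with AL671883.2 (16.1%), an overlapping gene on the other strand with 0 counts, and less with HLA-C (8.86%). For HLA-F it was mostly with AL645939.1 (13.9%) and HLA-F-AS1 (9.58%), also on the other strand, and for HLA-C mostly with HLA-B (10.4%). The gene model of HLA-B, chr6:31269491-31357188, reaches over HLA-C, at chr6:31268749-31272130, with 35 shared exon bases. PSMB8 and PSMB9 share 139 exon bases on opposite strands, and the antisense gene PSMB8-AS1, with 4 to 31 counts, covers 20.6% of the exon bases of PSMB8. Whether the counting used strand is not given in the sources used here, so reads of such pairs cannot be told apart. B2M and HLA-E share no exon base with another gene of the annotation, and both rose with vancomycin.

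Base composition and gene length moved with the vancomycin and cisplatin comparisons. The tested genes were split into 5 classes of about equal size by GC content, taken over all annotated transcripts of a gene together. With vancomycin the median log2 fold change ran from -0.29 in the lowest class to 0.31 in the highest. In 5 classes by exon length it ran from 0.23 in the shortest to -0.16 in the longest. HLA-B, HLA-C and HLA-E, at 58.7% to 61.3% GC, were in the highest class and above 91.8% to 95.5% of its genes. HLA-F, TAP1, PSMB8 and PSMB9 were above 95.3%, 86.3%, 85.5% and 93.8% of their GC classes. B2M, at 40.6% GC, was in the lowest class and above 98.5% of its genes, and TAP2, at 50.7% GC, was in the middle class and above 53.8%. With cisplatin the medians ran from -0.09 to 0.14 over the GC classes and from 0.27 in the shortest to -0.28 in the longest genes, and TAP2 was above 90.8% of its GC class and 95.8% of its length class. With iohexol the medians of all classes lay between -0.02 and 0.04. The part of base composition and length in these changes was not tested.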

How the data were processed

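Per the labels, poly-T beads and a NEBNext Ultra kit were used to make the libraries, and the submitters' processing notes name CASAVA 1.8, fastp, HISAT2 2.0.5, featureCounts 1.5.0-p3 and DESeq2 1.20.0. The authors deposited raw counts of reads per gene for the 12 samples. Their genome build, annotation and strand setting are not given in the sources used here. The gene positions of the 9 genes are those of GENCODE 29 (GRCh38).

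From these counts, edgeR 4.0.16 (R 4.3.3) gave TMM factors and quasi-likelihood tests. Each drug was fitted with the control group alone, and drug against drug in a fit of all 12 samples, after filterByExpr (minimum count 10, minimum total 15). Where a list held genes whose 3 samples reached the count minimum in 1 group alone, calls were counted over the genes that reached it in both groups. P-values were adjusted by Benjamini-Hochberg over all tested genes, and a gene was called under 0.05. The study used limma for the same contrasts, so limma-voom (limma 3.58.1) and DESeq2 1.42.0 were alternatives, with other scalings, filters, a replicate block and samples left out. The SE was the log2 fold change over the square root of F. CPM used the TMM factors of the 12-sample fit, and log2 CPM a prior count of 2. The floor of 3 counts was 0.177 to 0.218 CPM, and covers counting error only. Python 3.11.15 and matplotlib 3.10.9 gave ratios, exact permutation tests and figures. The scripts were tested on simulated data.

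The members, lists and tests were chosen with earlier results of these data known, and the promoter motifs, GC and length classes and 2 of the ratios after values were seen. Named genes were the 9, PSMB5, PSMB6, PSMB7, PSMB10, NLRC5, IRF1, RFX5 and TAPBP, and per list and drug the 3 called genes of at least 1 CPM with the largest change. Some genes that this rule or the lists take in are not reported here. HLA-DRA, RAET1G and PECAM1 were named after their values were seen. Nothing says that the replicates came from separate cultures, so p-values measure the spread between these samples. Pairs of replicates differed by more than counting noise (chi-square per degree of freedom 2.28 to 15.5).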

Additional observations from a re-analysis of the deposited data

How the results depend on the processing

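With vancomycin 8 genes were higher and 0 lower in all alternatives run. With iohexol 1 gene was lower, and 3 were (HLA-B, HLA-F and PSMB9) with no filter, with all 4 groups in one fit or at an unadjusted p, and 1 to 2 when a sample was left out. With cisplatin 5 were higher, against 3 to 5 when a sample was left out. With all 4 groups in one fit 3 were higher with cisplatin, and HLA-B and B2M lost the call. HLA-B also lost it with no filter. With cisplatin 1 was lower (PSMB9), against 0 with DESeq2, library size alone or all 4 groups, and 0 to 2 when a sample was left out. Scaling by library size alone moved the median of all genes from 0.01 to 0.23 with cisplatin, and 7 in place of 4 genes were then higher with cisplatin than with iohexol. The cause was not tested.

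All reversals of sign were in values that had not passed the test. Iohexol PSMB5, at 0.00088, was -0.027 (DESeq2), -0.020 (limma-voom), -0.011 (RLE), -0.037 (no filter) and -0.019 (all 4 groups). Iohexol PSMB8 was 0.062 and RFX5 0.038 with library size alone, as were cisplatin NLRC5 at 0.015 and vancomycin TAP2 at -0.047, and PSMB8 was 0.0075 with at least 10 counts in every sample. With a sample left out, iohexol values ran from -0.040 to 0.15 (HLA-E), -0.15 to 0.15 (PSMB8), -0.18 to 0.15 (PSMB5), -0.58 to 0.079 (PSMB10) and -0.077 to 0.0092 (RFX5), cisplatin HLA-C from -0.040 to 0.10, vancomycin TAP2 from -0.050 to 0.078, and PSMB9 between cisplatin and iohexol from -0.049 to 0.33. The iohexol log2 ratio differences ran from -0.045 to 0.013 (PSMB8/PSMB5) and -0.44 to 0.43 (PSMB10/PSMB7).

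A replicate block in the fit gave 1 lower with iohexol, 5 higher and 1 lower with cisplatin and 8 higher with vancomycin, the same counts as without it, and iohexol PSMB5 was -0.017. On average, same-numbered samples did not deviate together (mean r -0.02 over 18 pairs, from -0.184 to 0.103, and 0.01 over 36 others). With 3 samples per group, these values cannot show whether same-numbered samples share more than a number. Among all genes, the block gave 1181 higher and 915 lower with iohexol, in place of 1754 and 1529, and an unadjusted p gave 2803 and 2546. Leaving out Iohexol replicate 1 or 2 gave 1197 and 1090, or 1123 and 988. Leaving out Control replicate 1, 2 or 3 gave 1387 and 1275, 1027 and 822, or 1159 and 1068. Without Iohexol replicate 3 the calls rose to 2377 and 2167. That sample differed most from its group (chi-square per degree of freedom 15.5 and 14.6, against 3.56 between Iohexol replicates 1 and 2). It was the lowest iohexol sample for HLA-B, HLA-C, HLA-E, HLA-F, TAP1, PSMB8 and PSMB9, and not for B2M or TAP2. Library size alone moved the split of higher and lower calls over all genes, from 4643 and 4857 to 6929 and 3241 with cisplatin, from 1754 and 1529 to 2237 and 1078 with iohexol, from 5927 and 5121 to 3952 and 7816 between vancomycin and cisplatin, from 4956 and 4711 to 3505 and 6676 between vancomycin and iohexol, and from 4447 and 4770 to 5643 and 3950 between cisplatin and iohexol. Of the values of the other named genes with a sample left out, 30 of 186 lost the call with iohexol, 0 of 192 with cisplatin and 4 of 192 with vancomycin. Under the other alternatives 14 of 276 lost it with iohexol, 8 of them with the replicate block (PSMB7, IRF1, TAPBP, ULBP2, FCGRT, PSME1, POMP and CD14), and 0 with the other drugs. HLA-F, at 60 to 447 counts, was the least precise of the 9 genes.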
